A study of Mus musculus with 2 samples.

Results

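The genes described here belong to the insulin-like growth factor (IGF) system: the ligand gene Igf1, the receptor genes Igf1r and Igf2r, the adaptor gene Irs1 and the genes of the binding proteins IGFBP2 to IGFBP7. They were chosen by name, 10 in all, and 7 of them are among the 12707 genes of the deposited table: Igf1, Igf1r, Igf2r, Irs1, Igfbp4, Igfbp5 and Igfbp7. Igfbp2, Igfbp3 and Igfbp6 were not analysed here. RNA was sequenced from live cells negative for CD45, the leukocyte surface marker, sorted from tumours that Py8119 cells had formed in mice. Py8119 is a mouse mammary tumour line of mesenchymal character that came from the MMTV-PyMT model, and its cells carried wild-type Mtdh in both samples. The hosts were wild type for Mtdh (metadherin) in one sample and Mtdh knock out in the other. Each host genotype has 1 library, called below the WT-host library and the KO-host library. The sources used here do not give the numbers of tumours and mice behind each, the strain, age and sex of the mice, or how the knockout was made. The sort keeps tumour cells together with host fibroblasts, pericytes and endothelial cells, so the libraries are mixtures. In such bulk samples, fewer cells of a type and less RNA per cell cannot be told apart.

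IGF1 and IGF2 are secreted growth factors that activate the receptor tyrosine kinase IGF1R. The active receptor phosphorylates IRS proteins, which recruit PI3 kinase and so feed AKT and mTOR signalling, while another branch runs through SHC, GRB2 and the RAS pathway. IGF2R, also the cation-independent mannose 6-phosphate receptor, has no kinase: it takes IGF2 to the lysosome for breakdown and sorts lysosomal enzymes. IGFBPs hold the ligands outside the cell, and proteases such as PAPP-A release them. In the mammary gland the axis supports growth and survival of the epithelium, with stroma a main local source of ligand.

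Of the 7 genes, Igfbp4 had by far the highest level in both libraries and was 1.51-fold higher in the KO-host library. The receptor genes went opposite ways, Igf1r 1.29-fold higher and Igf2r 1.58-fold lower. Irs1 was 1.88-fold lower, a value made uncertain by an overlapping gene. Among the thinly expressed genes, Igfbp7 was 9.90-fold lower and Igfbp5 2.66-fold higher, while Igf1 was at a like low level in both. These folds are ratios of RPM, from reads recovered out of the deposited values. RPM is reads per 1000000 recovered reads of the library, counted over the genes of the deposited table only. With 1 library for each host there is no replicate check, no test was made, and each value describes this pair of libraries.

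The regulatory sequence of 4 of these genes is shown because 3 of them have the most reads and the other, Igfbp7, has the largest difference on the read scale. Each is the 250 bases before the RefSeq transcription start in build GRCm38.p6, written 5′ to 3′ on the gene's strand. The bases just after that start were found in an annotated transcript of the gene (GENCODE M21) for Igfbp4, but not for Igf1r, Igf2r and Igfbp7. The windows are chr7:67952007-67952256 (plus strand), chr17:12769707-12769956 (minus strand), chr11:99040994-99041243 (plus strand) and chr5:77408046-77408295 (minus strand). Capitals mark the GC box, whose letters are GGGCGG. They also mark the E box, which reads CACGTG in either direction. The other motif in capitals is the TATA box, spelled TATAAA. All were searched on both strands.
Igf1r: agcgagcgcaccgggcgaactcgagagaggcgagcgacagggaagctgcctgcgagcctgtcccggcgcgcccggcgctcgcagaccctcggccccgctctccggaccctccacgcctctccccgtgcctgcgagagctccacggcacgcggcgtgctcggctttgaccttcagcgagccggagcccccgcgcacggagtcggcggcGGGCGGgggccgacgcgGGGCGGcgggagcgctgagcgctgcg
Igf2r: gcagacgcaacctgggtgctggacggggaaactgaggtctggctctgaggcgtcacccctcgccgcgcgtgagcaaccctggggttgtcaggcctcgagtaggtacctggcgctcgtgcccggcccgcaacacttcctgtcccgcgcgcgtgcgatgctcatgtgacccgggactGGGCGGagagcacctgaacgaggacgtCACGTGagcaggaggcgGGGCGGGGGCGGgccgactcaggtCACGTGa
Igfbp4: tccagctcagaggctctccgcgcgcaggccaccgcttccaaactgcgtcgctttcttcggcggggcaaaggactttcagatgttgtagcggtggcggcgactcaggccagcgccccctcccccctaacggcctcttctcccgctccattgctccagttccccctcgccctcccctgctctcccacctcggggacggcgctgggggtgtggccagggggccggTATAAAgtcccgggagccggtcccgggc
Igfbp7: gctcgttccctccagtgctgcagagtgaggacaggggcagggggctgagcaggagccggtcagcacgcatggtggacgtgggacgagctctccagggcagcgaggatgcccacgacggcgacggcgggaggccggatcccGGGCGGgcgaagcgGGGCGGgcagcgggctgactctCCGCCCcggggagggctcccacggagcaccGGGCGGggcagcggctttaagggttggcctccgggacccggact

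The Igf1r window is 77.6% G and C and holds 2 GC boxes, and Igfbp7 holds 4, of which 1 is on the opposite strand. Igf2r has 3 GC boxes, a pair of them directly joined, and 2 E boxes. The Igfbp4 window is the one of the 4 with a TATA box, whose first base lies 28 bases before the start. Among 32851 RefSeq promoter windows of the same length, 32.7% hold a GC box, 6.02% an E box and 12.4% the TATAAA letters, and the median G and C content is 52.4%. None of the 7 genes' windows has TTCNNNGAA, the letters of an interferon gamma activated site, which 7.02% of all windows have. These matches describe letters only, and no readout of binding was part of the data.

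How the deposited values were made decides what can be read from them. The authors' log2(FPKM + 1) values use each gene's whole genomic span with its introns as the length. FPKM is fragments per kilobase, scaled here to the library's total over the listed genes. Igf1r spans 280842 bases, and its 16207 reads in the WT-host library became an FPKM of only 2.21. Igfbp4 spans 13149 bases. The added 1 therefore shrinks a difference most where a gene is long or thinly expressed, and each gene is given below on both scales. Over the listed genes, the libraries held 26069471 recovered reads (wild-type host) and 23381893 (knockout host). Mtdh itself had 28377 and 23131 reads, a ratio of 0.909 (95% counting interval 0.893 to 0.925). Since Py8119 cells carry Mtdh in either host, this does not check the host label.

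To set genes side by side, RPM was divided by the length in kilobases of each gene's annotated exons (GENCODE M21), which gives an exon-based level. This takes all reads of a gene as exon reads, which was not tested. If intron reads were counted, genes with long introns would stand too high. Igfbp4 stood first, with exon-based levels of 274.3 in the WT-host library and 413.9 in the other, within the top 0.433% of all listed genes by the mean of both. Igf2r followed at 70.6 and 44.7, and Igf1r at 37.0 and 47.7, so the order of the receptors on this level was reversed between the libraries. Igfbp7 was at 10.5 and 1.06 and Irs1 at 8.67 and 4.61, and these neighbours also changed places. Igfbp5 was at 0.881 and 2.34, above Igfbp7 in the KO-host library, and Igf1 was last at 0.554 and 0.656. Without replicates there is no spread against which to judge these changes of order.

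**Figure D1:**
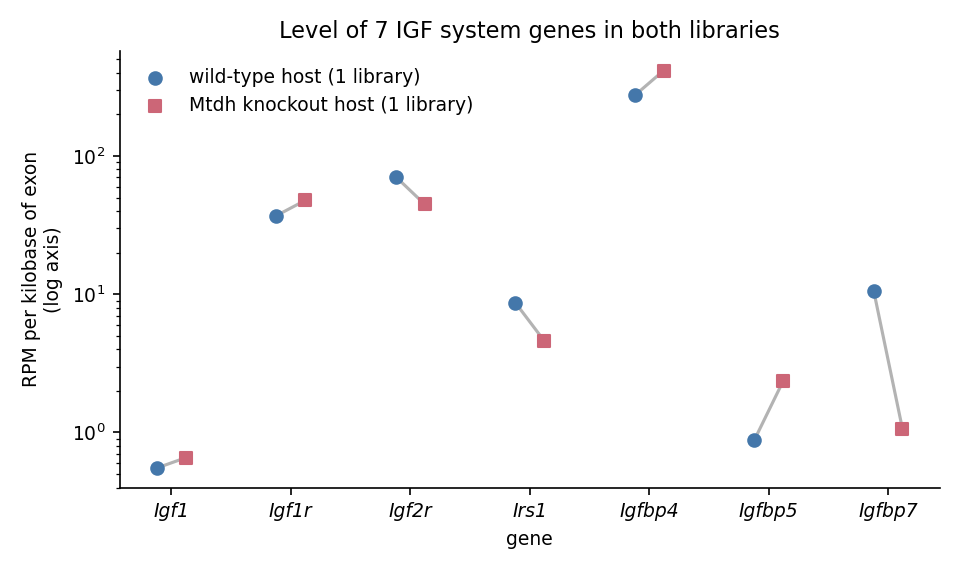
Level of each gene as RPM per kilobase of annotated exon (log axis), with 1 point per library, circles for the wild-type host and squares for the knockout host, joined by a line. Igfbp4 lies far above the others, Igf1r and Igf2r approach each other at 47.7 and 44.7 in the knockout host, and Igfbp7 drops from 10.5 to 1.06.

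Differences were first counted on the deposited scale, where a gene is called when its log2 value differs by 1 or more and its mean over both libraries is 1 or more. Of the 7 genes, 4 passed the filter on the mean (Igf1r, Igf2r, Igfbp4 and Irs1), and 0 of these were higher and 0 lower by the rule. Over all 6057 genes that passed, 2.31% were higher in the KO-host library and 2.64% were lower. On the read scale, where all 7 had 100 reads or more over both libraries, 1 was at least 2-fold higher (Igfbp5) and 1 at least 2-fold lower (Igfbp7). The same rule called 8.40% of 10651 genes higher and 11.3% lower. At 1.5-fold, 2 members were higher (Igfbp4 and Igfbp5) and 3 were lower (Igf2r, Irs1 and Igfbp7), against 15.7% and 20.8% of all these genes. The median log2 ratio of the 7 genes was 0.25, against -0.06 over all of these genes, with 4 members above 0 (45.6% of all these genes) and 3 below (54.4%).

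The background depends on depth. Among 4038 genes with 100 to 1000 reads over both libraries, 17.5% were at least 2-fold higher and 23.4% at least 2-fold lower, and the 5th and 95th percentiles of the log2 ratio were -2.81 and 2.30. Among 1137 genes with 10000 reads or more these shares were 1.93% and 0.704%, with percentiles of -0.45 and 0.63. Igf1, Igfbp5 and Igfbp7 lie in the thin range, Irs1 between, and Igf1r, Igf2r and Igfbp4 in the deep one. A small ratio of a deep gene can thus lie farther out among its peers than a large ratio of a thin one.

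**Figure D2:**
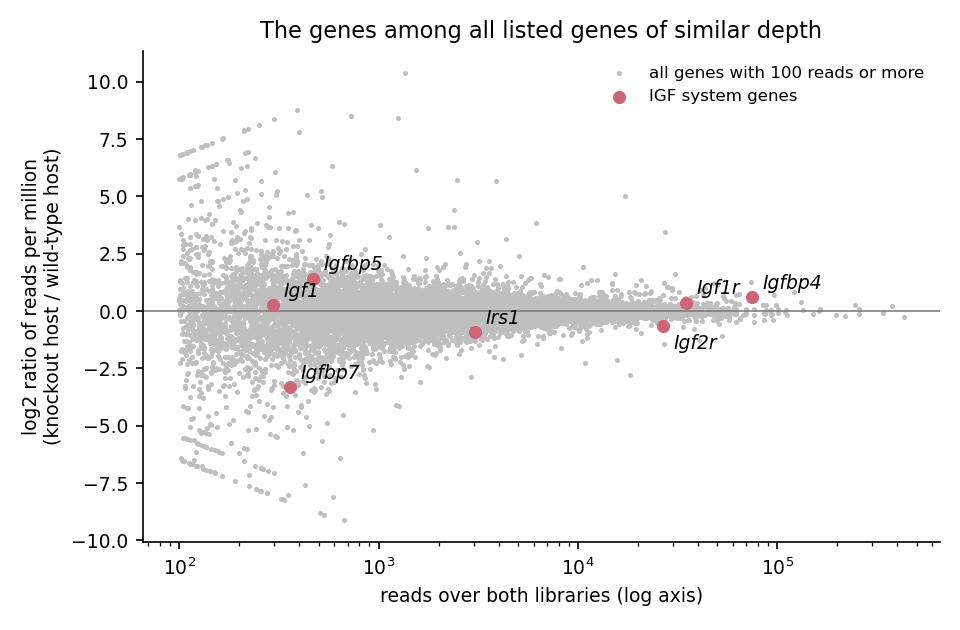
Log2 ratio of RPM (knockout host over wild-type host) against reads over both libraries (log axis), with 1 grey point per gene and the 7 IGF system genes in red. The grey cloud narrows with depth. Igfbp7 at -3.31 lies in its lower part, and Igf2r at -0.66 lies at the lower edge of the narrow cloud of deep genes.

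Igf1 (ENSMUSG00000020053, chromosome 10, 87694127 to 87772905, plus strand) encodes the ligand. Gene positions here are as the table gives them, and mm39 is the build in the submitters' processing notes. It had 143 reads in the WT-host library and 152 in the KO-host library. Its FPKM of 0.0696 and 0.0825 gave a deposited log2 difference of 0.02. The RPM ratio was 1.18, and its 95% counting interval of 0.937 to 1.5 includes 1, so a difference was not detectable at this depth. Such intervals are of the Clopper-Pearson kind, exact for the split of a gene's reads between the libraries. They cover counting error only, and not differences between tumours, mice or library preparations, which 1 library per host cannot measure. Reads copied by PCR may also be counted more than once, which would make the intervals too narrow. The antisense gene Igf1os overlaps Igf1 in GENCODE, and the sources used here do not say if the authors' counting used strand.

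Igf1r (ENSMUSG00000005533, chromosome 7, 67602575 to 67883417, plus strand), the signalling receptor, had 16207 and 18713 reads. The deposited log2 values were 1.68 and 1.94, a difference of 0.26. On the read scale it was 1.29-fold higher in the KO-host library (95% counting interval 1.26 to 1.32). Of the genes with 10000 reads or more, 11.4% had ratios this high, so its place among genes of that depth is not extreme.

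Igf2r (ENSMUSG00000023830, chromosome 17, 12901293 to 12988552, minus strand), the lysosomal sorting receptor, had 17124 and 9735 reads. The deposited log2 values were 3.09 and 2.53, a difference of -0.56. Its RPM was 1.58-fold lower in the KO-host library (95% counting interval 1.54 to 1.62). Among genes of its depth, 2.29% had ratios this low. In exon-based levels, the quotient of Igf1r to Igf2r was 0.525 in the WT-host library and 1.07 in the other. The imprinted antisense RNA gene Airn overlaps Igf2r over 28354 bases in GENCODE (GRCm38), so reads from Airn cannot be told apart from those of Igf2r if strand was not used.

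Irs1 (ENSMUSG00000055980, chromosome 1, 82210822 to 82269138, minus strand) encodes the adaptor that links the receptor to PI3 kinase. It had 2067 and 986 reads, and its deposited log2 values of 1.24 and 0.79 differed by -0.45. Its RPM was 1.88-fold lower in the KO-host library (95% counting interval 1.74 to 2.03), and 5.75% of genes with 1000 to 10000 reads had ratios this low. The reads were not whole numbers, at 2067.4 and 986.4. Gm9747, a gene on the opposite strand within Irs1, was chosen after its values were seen and had 89.6 and 333.6 reads. The pair summed to 2157 and 1320, whole within 0.1 read in each library. The sum was 1.47-fold lower in the KO-host library (95% counting interval 1.37 to 1.57). The part of this overlap in the Irs1 value was not tested.

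**Figure D3:**
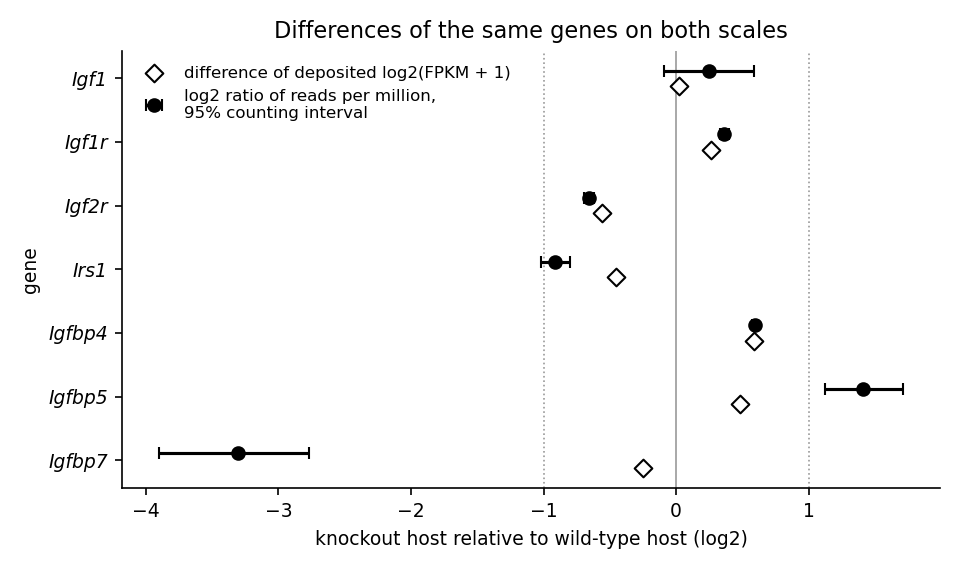
Difference of each gene between the libraries on 2 scales, both as log2 with the knockout host relative to the wild-type host. Filled circles are ratios of RPM with 95% counting intervals, open diamonds are differences of the deposited log2(FPKM + 1) values, and dotted lines mark 1 and -1. The scales are nearly equal for Igfbp4 (0.59 on both) and far apart for Igfbp7 (-3.31 and -0.25).

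Igfbp4 (ENSMUSG00000017493, chromosome 11, 98932070 to 98945219, plus strand) encodes a binding protein that mostly restrains IGF action until it is cleaved. It had 31575 and 42740 reads, an FPKM of 92.1 in the WT-host library and 139 in the other. The difference was 0.59 on either scale, a ratio of 1.51 (95% counting interval 1.49 to 1.53). Of genes with its depth, 5.63% had ratios this high. Igfbp4 made up 98.5% and 99.2% of the RPM of the 3 listed binding protein genes, whose sum was 1229 RPM in the WT-host library and 1843 RPM in the other. The sum therefore follows Igfbp4, and changes of Igfbp5 and Igfbp7 hardly touch it.

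Igfbp5 (ENSMUSG00000026185, chromosome 1, 72897091 to 72914044, minus strand) encodes a binding protein that attaches to matrix and is known for its part in mammary involution. It had 138 and 329 reads. The FPKM of 0.312 and 0.830 gave a deposited log2 difference of 0.48, while the RPM ratio was 2.66 (95% counting interval 2.17 to 3.27). Among genes with 100 to 1000 reads, 10.9% had ratios this high.

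Igfbp7 (ENSMUSG00000036256, chromosome 5, 77497087 to 77555889, minus strand) encodes a matrix-associated relative with weak affinity for IGFs, common in vessels and stroma. It had 331 reads in the WT-host library and 30 in the other. The FPKM of 0.216 and 0.0218 gave a deposited log2 difference of only -0.25. Its RPM was 9.90-fold lower in the KO-host library (95% counting interval 6.8 to 14.9), and 3.84% of genes with 100 to 1000 reads had ratios this low. Polr2b overlaps its last 85 bases on the opposite strand, and the antisense gene Gm34648 lies within it.

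Igfbp7 is a gene of vessels and stroma in many tissues, and values of markers of those cells are given here. Over all genes with 100 reads or more, 11.3% were at least 2-fold lower in the KO-host library and 8.40% at least 2-fold higher. Of the 12 fibroblast markers, 10 were listed, and 7 had 100 reads or more. Of these, 4 were at least 2-fold lower in the KO-host library and 0 were at least 2-fold higher. The other 3 had ratios below 1, among them Pdgfra, whose counting interval of 0.930 to 1.004 includes 1 (5834 and 5056 reads). The summed level over all listed fibroblast markers was 2135 and 857.9 RPM. Most of it came from the collagen genes Col3a1 (1136 and 473.7 RPM) and Col1a1 (618 and 88.06 RPM), so the sum mostly follows these. Col1a1 had 16111 and 2059 reads. Col1a2, another collagen chain named with its values in view, had 1526 and 893 reads, a ratio of 0.6525. Of the 12 pericyte and smooth muscle markers 7 were listed, with sums of 428 and 96.8 RPM. Of the 5 with 100 reads or more, 4 had a ratio, and 3 of these were at least 2-fold lower. The other, Tagln, was near equal at 70.5 and 62 reads, with a counting interval of 0.681 to 1.39. Pdgfrb, the PDGF receptor of pericytes, had 9206 and 1691 reads and Notch3 had 950 and 188. The fifth, Cspg4, was listed at 0 in the KO-host library after 190 reads in the other. Abcc9, under 100 reads and picked with its values in view, went the other way with 1 and 55.7 reads. Only 5 of 13 endothelial markers were listed, at 22.3 and 15.3 RPM in all. Of the 4 with 100 reads or more, 2 were at least 2-fold lower and 1 at least 2-fold higher, with a median log2 ratio of -1.07. These 4 lay at 100 to 1000 reads, where 23.4% of all genes were at least 2-fold lower and 17.5% at least 2-fold higher. Plvap had 348 and 58 reads, Eng 98 and 18, Pecam1 129 and 128, and Cdh5 1 and 146. The part of these cell types in the Igfbp7 value was not tested.

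The other marker lists went in different directions. The 5 mammary epithelium markers with 100 reads or more had log2 ratios above 0, where 45.6% of all genes lay. Krt8 had 3172 and 4050 reads and Epcam 55 and 151. The 3 listed under 100 reads were named with their values in view. Csn3 had 0 and 99.5 reads, while Trp63 had 99 and 0 and Elf5 45 and 0. The 8 listed epithelial markers summed to 300.5 and 422 RPM. The 10 mesenchymal genes, Vim and Fn1 the most abundant, summed to 8959 and 7968 RPM, with a median log2 ratio of -0.11. Pan-leukocyte markers were low, at 28.7 and 26.7 RPM over 10 genes. Of these, Lcp1 had 231.9 and 197 reads, Arhgdib 212 and 78, and Fcer1g 31 and 70. Ptprc, named because it encodes CD45, the marker of the sort, had 46 and 64 reads. The 12 macrophage markers summed to 198.3 and 225.6 RPM, most of it Lyz2, and they split: Mpeg1 had 378 and 952 reads and Cd68 33 and 70, while Itgam had 237 and 25. The 4 listed adipocyte markers were thin, at 13.6 and 9.50 RPM, with Pnpla2 at 269 and 178 reads and Lipe at 80 and 23. Of the hepatocyte markers 1 was listed, Cyp2e1, with 62.5 reads in the WT-host library and 0 listed in the other. The part of all these cell types in the members' values was not tested.

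Other ligand, receptor, adaptor and carrier genes, with genes of RNA-binding proteins named for Igf2 mRNA, were read on the same scale. On it, 8.40% of all genes were at least 2-fold higher and 11.3% at least 2-fold lower. Of the 12 genes in this set 7 were listed, and 6 had 100 reads or more, 1 at least 2-fold higher and 1 at least 2-fold lower. Insr, the insulin receptor, which can pair with IGF1R in hybrid receptors, had 4939 and 6613 reads, a ratio of 1.49 (95% counting interval 1.44 to 1.55). Irs2, the sister adaptor of Irs1, had 3880 and 5185 reads, also a ratio of 1.49 (1.43 to 1.55), so the adaptor genes differed in opposite directions. Igf2, the second ligand, was thin at 50 and 121 reads, a ratio of 2.7 (1.93 to 3.83). Igf2bp3, an RNA-binding protein named for Igf2 mRNA, was lower with 270.9 and 76.6 reads. Igfals, which carries IGFs in blood, had 71 reads in the WT-host library and was listed at 0 in the other.

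IGFBP proteases and their inhibitors gave a mixed picture. Of 19 genes 18 were listed, and 15 had 100 reads or more and a ratio, of which 11 were below 0 (54.4% of all genes were), 2 at least 2-fold lower and 1 at least 2-fold higher. The last counts are near the shares of 11.3% and 8.40% over all genes. The median log2 ratio was -0.33, against -0.06 over all genes. Mmp2, a gelatinase that also appears among the mesenchymal markers, had 2028 and 563 reads, and Pappa2, a protease of IGFBP5, 665 and 269. Pappa, the protease of IGFBP4, was chosen after its values were seen and had 454 and 237 reads, a ratio of 0.582 (95% counting interval 0.495 to 0.683). Stc1, a stanniocalcin that inhibits PAPP-A, was listed at 0 in the KO-host library after 219 reads in the other, as was Mmp3 after 109. Timp3, a matrix-bound protease inhibitor, had 9 and 126 reads. The most abundant, the lysosomal protease gene Ctsd and the inhibitor gene Timp2, had ratios of 0.952 and 0.737.

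Of 38 downstream signalling genes 37 were listed and 36 had 100 reads or more, with a median log2 ratio of -0.02. Of these, 35 lay within 2-fold, which is near the background. Most of them had 1000 to 10000 reads, where only 3.03% of all genes were at least 2-fold higher and 4.58% at least 2-fold lower. The one past 2-fold was Pik3r2, a regulatory subunit of PI3 kinase, with 353 and 119 reads. It lay among genes with 100 to 1000 reads, where 23.4% were at least 2-fold lower and 15.5% had ratios this low. Gsk3b, a kinase that AKT inhibits, had 13653 and 9758 reads (ratio 0.797), and Foxo3, a transcription factor that AKT keeps out of the nucleus, had 8771 and 10078 (ratio 1.28).

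Growth hormone drives Igf1 transcription in liver and other tissues, through its receptor, JAK2 and STAT5. The list for that axis held 7 genes, among them Prlr, the prolactin receptor gene. All 7 had 100 reads or more, 6 of them above 0 (45.6% of all genes were), and 0 were at least 2-fold higher or lower. The median log2 ratio was 0.66, against -0.06 over all genes. Ghr, the receptor gene, had 8092 and 12120 reads, a ratio of 1.67 (95% counting interval 1.62 to 1.72), and Jak2, which serves interferon and cytokine receptors as well, had 904 and 1459, a ratio of 1.80 (1.66 to 1.96). Socs2, which damps growth hormone signalling and was picked with its values in view, had 706 and 1156 reads. The STAT5 genes, also named with their values in view, differed less. Stat5a had a ratio of 1.288 (95% counting interval 1.146 to 1.448). Stat5b, the one gene of the list below 0, had a ratio of 0.961 (0.878 to 1.051). Igf1 itself, at 143 and 152 reads, stayed at a ratio of 1.18.

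**Figure D4:**
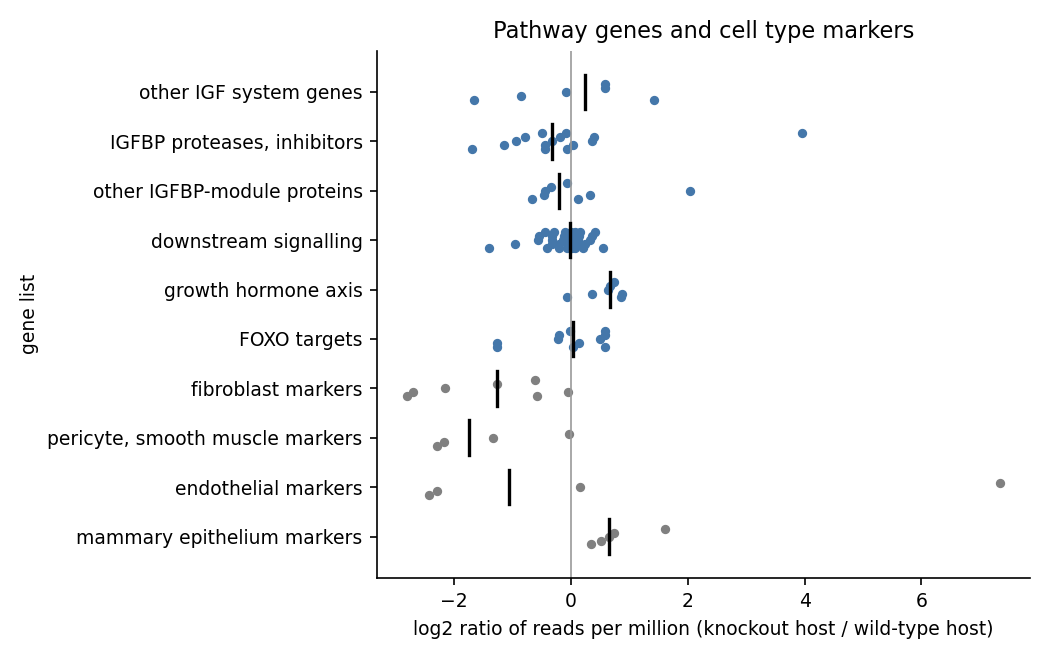
Log2 ratio of RPM (knockout host over wild-type host) for genes with 100 reads or more and a ratio, in 6 pathway lists (blue) and 4 cell type marker lists (grey), with 1 point per gene and a black bar at each list's median. Downstream signalling genes cluster at a median of -0.02, growth hormone axis genes lie to the right at 0.66, and fibroblast and pericyte markers lie to the left at -1.26 and -1.75.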

How the data were processed

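Per the submitters' processing notes, STAR 2.7.8a, Partek and build mm39 were used. The authors deposited log2(FPKM + 1) values for 12707 protein-coding genes. Values turned back to FPKM and multiplied by the span from start to stop sum to 1000000 in each library, so span is the length used. Low values lie on a grid of equal steps, each worth 1 read. From it, each library's total over the listed genes and the reads per gene were computed. Of values under 1000 reads, 84.9% (wild-type host) and 83.4% (knockout host) were whole within 0.1 read. The recovery was tested on simulated data in which every gene had whole reads, so values that are not whole were not covered. Of genes with 100 reads or more, 166 were at 0 or under 0.5 read in 1 library and got no ratio. Exon lengths from GENCODE M21, matched by Ensembl identifier, covered 99.9% of genes. All 7 members matched a RefSeq promoter. Pathway and marker genes named are those past a 2-fold ratio or a log2 difference of 1, or the most abundant of each list, unless said otherwise. The members and lists were chosen with earlier results of these data known. Analysis used Python 3.11.15, numpy 2.4.6, pandas 2.3.3 and scipy 1.17.1.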

Additional observations from a re-analysis of the deposited data

How the results depend on the processing

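With 1 library per host, no library could be left out, and no paired fit could be made. No paired analysis was possible because each group holds 1 library and no result comes from a test. On the deposited scale 0 members were called higher and 0 lower. The ratio of recovered reads called 1 higher (Igfbp5) and 1 lower (Igfbp7), and on the deposited scale a size rule of 1.5-fold in place of 2-fold called 1 higher (Igfbp4). The 1.5-fold rule on the read scale, added after seeing the data, called 2 higher and 3 lower. With 0.1 or 5 added to FPKM, with no filter or a mean of 0.5, with the median difference set to 0 and with quantile normalization, both counts were 0. Both were also 0 on the read scale with a minimum of 1000 reads, an alternative chosen after seeing the data. Over 35 values of the 7 genes under 5 alternatives, 0 changed sign. Adding 0.1 or 5 and taking the read ratio keep the sign by construction. Only the median shift and quantile normalization could have changed one. The value of Igfbp7 depends most on the scale: -0.25 as deposited, -1.37 with 0.1 added, -0.05 with 5 added and -3.31 on the read scale. Igfbp5 was at 0.48, 1.17, 0.13 and 1.41 in the same order. Depth limits Igf1, Igfbp5 and Igfbp7, each under 1000 reads over both libraries.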

Other observations

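Other proteins that share the IGFBP module, a cysteine-rich fold at the start of the protein, include the CCN family and the HTRA1 protease. Of 12 such genes 9 were listed and 8 had 100 reads or more, with a median log2 ratio of -0.20 and 7 within 2-fold. Over all genes, 8.40% were at least 2-fold higher and 11.3% at least 2-fold lower, and the median was -0.06. Ccn1, a matricellular protein induced by YAP, had 11514 and 6526 reads, a ratio of 0.632 (95% counting interval 0.613 to 0.652), and Htra1 had 10239 and 6719, a ratio of 0.732. Esm1, an endothelial proteoglycan gene, was 4.07-fold higher in the KO-host library, with 230 and 840 reads. It was the only one of the 8 at least 2-fold higher, and its deposited log2 difference was 1.36.

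FOXO factors are held in check by IGF and insulin signalling, and 11 of 12 of their known target genes were listed, all with 100 reads or more. Their median log2 ratio was 0.03, with 6 above 0, 5 below and 2 at least 2-fold lower. Over all genes with 100 reads or more, 45.6% were above 0, 54.4% below and 11.3% at least 2-fold lower. The 2 targets past 2-fold were Txnip, an inhibitor of thioredoxin and glucose uptake, with 1599 and 593 reads, and Pik3ip1, a brake on PI3 kinase, with 303 and 113. The most abundant, Bcl2l11 and Cdkn1b, had ratios of 1.1 and 1.02.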
